A study of Mus musculus with 4 samples.

Results

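The genes of T cell inhibition and costimulation followed here through single-cell libraries of lung and synovium were chosen by symbol: Pdcd1, Cd274, Pdcd1lg2, Ctla4, Cd80, Cd86, Lag3, Tigit, Icos and Havcr2. They are 10 of the 32285 genes counted, and all 10 had UMIs (unique molecular identifiers, each standing for 1 captured transcript) in every library. The libraries are lung TNF-, lung TNF+, synovium TNF- and synovium TNF+. TNF+ mice were TNF-Tg mice, C57BL/6 mice that overexpress a human TNF gene and develop inflammatory arthritis and pulmonary vascular disease, and TNF- mice were their wildtype littermates without the transgene. Mice were female and 4 months old, and tissue was pooled by group before capture, from 3 to 5 mice for lung and from 5 to 10 mice for synovium. Each group is therefore 1 library of 1 pool, with no replicate. A difference between TNF+ and TNF- compares 2 pools of mice, no p-value is given, and every interval covers counting error alone. The human transgene is not in the mouse reference, so its RNA was not counted, and the labels do not say which cells express it.

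T cells need a signal through the antigen receptor and a second, costimulatory signal, and both are held in check by inhibitory receptors. CD28 and CTLA-4 (Ctla4) share the ligands CD80 and CD86 on antigen-presenting cells, CD28 as an activator and CTLA-4 as an inhibitor that is abundant in regulatory T cells. PD-1 (Pdcd1) is an inhibitory receptor of activated T cells with the ligands PD-L1 (Cd274) and PD-L2 (Pdcd1lg2). LAG-3 (Lag3), TIGIT (Tigit) and TIM-3 (Havcr2) are further inhibitory receptors, TIM-3 also being made by myeloid cells, and ICOS (Icos) is a costimulatory receptor of the CD28 family.

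The members lie on 5 chromosomes of build GRCm38, and 2 pairs of relatives are neighbours. Ctla4 (chr1:60887000-60915832) and Icos (chr1:60977927-61000320) lie side by side on the plus strand, with Pdcd1 further along the same chromosome on the minus strand (chr1:94038305-94052553). Cd274 (chr19:29367455-29388095) and Pdcd1lg2 (chr19:29410919-29471161) are also adjacent and on the plus strand. Cd86 (chr16:36603869-36666081, minus strand), Cd80 (chr16:38455561-38496335, plus strand) and Tigit (chr16:43648867-43664146, minus strand) lie on chromosome 16. Lag3 is at chr6:124904361-124911705 on the minus strand and Havcr2 at chr11:46454935-46481255 on the plus strand. Introns were counted together with exons. The antisense genes AC119228.1 and A930007I19Rik overlap Cd274 and Pdcd1lg2, in that order.

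The 2 PD-1 ligand genes were higher together in several TNF+ myeloid populations described below, so the 250 bases before their start sites are shown (RefSeq, GRCm38.p6, plus strand). Of the 10 members, 7 were matched in the promoter table. The motifs searched on both strands were that of the interferon-stimulated response element (GAAA, any 2 bases, GAAA), the gamma-activated site (TTC, any 3 bases, GAA) and NF-kB (GGGA, any 4 bases, CC). These are held by 2.98%, 7.02% and 17.6% of 32851 promoter windows, in that order. Motifs were counted separately even where they overlap, and capitals mark a match, which is a description of the letters alone. The Cd274 window (chr19:29367188-29367437) held none of these motifs. The Pdcd1lg2 window (chr19:29410669-29410918) held 1 match to the NF-kB motif, on the minus strand.
Cd274: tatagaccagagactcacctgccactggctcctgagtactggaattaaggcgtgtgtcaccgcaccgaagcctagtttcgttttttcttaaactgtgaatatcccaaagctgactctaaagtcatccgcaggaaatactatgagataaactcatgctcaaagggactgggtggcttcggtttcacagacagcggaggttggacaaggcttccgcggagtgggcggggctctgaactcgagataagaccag
Pdcd1lg2: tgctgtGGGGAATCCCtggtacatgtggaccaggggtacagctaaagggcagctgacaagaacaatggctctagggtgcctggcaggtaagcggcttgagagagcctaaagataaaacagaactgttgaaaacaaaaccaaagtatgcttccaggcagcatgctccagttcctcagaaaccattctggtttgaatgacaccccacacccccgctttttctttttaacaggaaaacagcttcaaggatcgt

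The libraries held 48454234 to 155989523 UMIs, and 3152 to 9174 cells per library passed the filters, with a median of 7137 to 12492 UMIs per cell. Cell groups were named from markers that include none of the members. Between 0.839% and 15.2% of cells were left unnamed, with the highest share in the TNF+ synovium. Between 24 and 53 barcodes per library also occurred in another library, and leaving them out moved none of the members' 242 ratios beyond its counting interval.

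Most members kept to a few cell classes, Cd274 less so, and the classes changed between libraries. T cells (the clusters named T cell or gamma delta T cell) held 92.0% of the Pdcd1 UMIs of TNF- lung and 89.8% of those of TNF+ lung. In synovium they held 52.3% of Pdcd1 UMIs for TNF- and 85.3% for TNF+. Their share of Ctla4 UMIs was 83.3% (TNF-) and 82.9% (TNF+) for lung, against 42.0% (TNF-) and 67.3% (TNF+) for synovium. Icos followed the T cells except in the TNF- synovium, where ILC2 held 553 of its 853 UMIs (64.8%) and T cells 28.7%. No synovial cluster was named NK cell. Monocytes, macrophages and dendritic cells held most Havcr2 UMIs of every library. The share of Cd274 UMIs held by monocytes and macrophages was 28.7% (TNF-) and 75.4% (TNF+) for lung, and 12.0% (TNF-) and 63.0% (TNF+) for synovium. Of the 4128 Cd274 UMIs of TNF- lung, B cells held 1276 and T cells 575. In TNF- synovium, fibroblasts and mural cells held 30.1% of Cd274 UMIs and endothelium 25.5%. Cd80 and Cd86 UMIs of the TNF- synovium came mostly from dendritic cells, 67.3% and 63.6%, and those of the TNF+ synovium from monocytes and macrophages, 67.5% and 73.4%. Lag3 and Tigit were split from the other receptors in the TNF- synovium, where fibroblasts and mural cells held 77.2% and 68.3% of their UMIs and T cells 0.741% and 16.9%. Shares of a gene's UMIs follow the number of cells of each class as well as their level, and the 2 cannot be told apart from the shares.

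**Figure D1:**
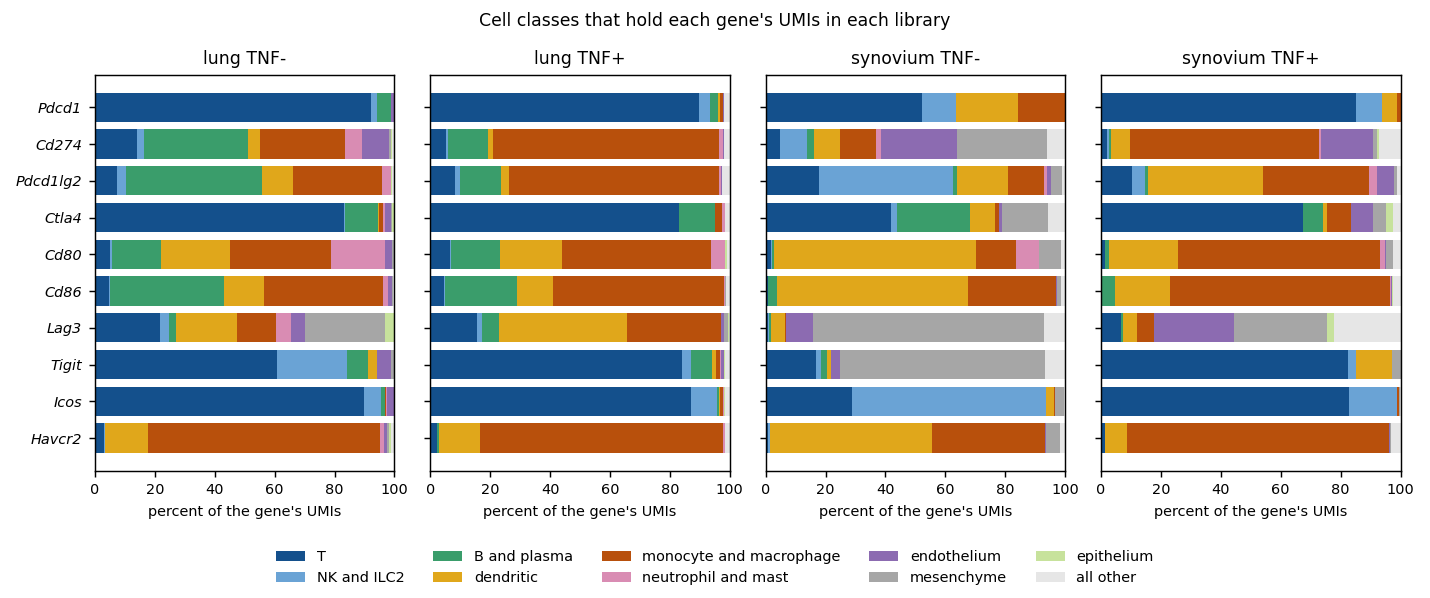
Share of each member's UMIs (percent, horizontal axis) held by each cell class, with 1 panel per library and 1 bar per gene. T cells held 89.8% of Pdcd1 UMIs in the TNF+ lung, monocytes and macrophages held 75.4% of Cd274 UMIs there, and mesenchymal cells held 77.2% of Lag3 UMIs in the TNF- synovium.

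The T cell comparison in lung asks which receptors differ between TNF+ and TNF- mice and in which subset. The lung held 969 T cells in the TNF- library and 1472 in the TNF+ library, and their makeup differed. Cells with a UMI of Foxp3, the lineage factor of regulatory T cells, were 58 (5.99%, exact binomial 95% interval 4.58 to 7.67) in the TNF- lung and 186 (12.6%, 11 to 14.4) in the TNF+ lung. CD4+Foxp3- cells (a Cd4 UMI, and no UMI of Foxp3, Cd8a or Cd8b1) numbered 295 and 526. Of these, cells in a resting state, defined by UMIs of genes of resting T cells such as Ccr7 and Lef1, were 75.9% in the TNF- lung and 35.0% in the TNF+ lung. Cells with a Trdc UMI, the gamma delta receptor gene, and without Cd4 or Cd8 UMIs numbered 29 and 92. A level over all T cells therefore mixes the level within subsets with this change of makeup, and both are given.

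Over all lung T cells, 5 of 10 members were at least 2-fold higher in TNF+ (Pdcd1, Pdcd1lg2, Ctla4, Cd80 and Tigit), where 6.57% of the 13960 genes with at least 20 UMIs were 2-fold higher. None of the members was 2-fold lower, where 7.05% of genes were. The members' median log2 ratio was 1.02 and that of all genes was 0.04. Ratios are log2 of the TNF+ over the TNF- level, and levels are CPM, UMIs of the gene per 1000000 UMIs summed over the cells of the group.

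Pdcd1 was the receptor with the largest ratio over lung T cells. It had 81 UMIs (8.91 CPM) in TNF- and 422 UMIs (30.8 CPM) in TNF+ lung T cells, a log2 ratio of 1.79 (95% interval 1.44 to 2.15). Within Foxp3+ cells the level was 17.4 CPM in TNF- (9 UMIs) and 65.9 CPM in TNF+ (103 UMIs), a ratio of 1.92 (0.94 to 3.09). Within CD4+Foxp3- cells it was 7.42 CPM in TNF- (20 UMIs) and 33.4 CPM in TNF+ (164 UMIs), a ratio of 2.17 (1.5 to 2.92). Both CD4 subsets thus had a higher Pdcd1 level in TNF+. Resting CD4+Foxp3- cells had 2.42 CPM (TNF-, 5 UMIs) and 8.77 CPM (TNF+, 16 UMIs), a ratio of 1.86 (0.35 to 3.66). CD4+Foxp3- cells outside the resting state had 23.9 CPM in TNF- (15 UMIs) and 48.0 CPM in TNF+ (148 UMIs), a ratio of 1.01 (0.24 to 1.88). CD8+ cells had 7.0 CPM in TNF- and 11.3 CPM in TNF+, with an interval that held 0 (-0.04 to 1.44). Trdc+ cells had 67.5 CPM in TNF- (17 UMIs) and 92.1 CPM in TNF+ (73 UMIs), the highest of the gated lung T subsets in both libraries, with an interval that held 0 (-0.33 to 1.30). The direction also differed between clusters: Pdcd1 was higher in TNF+ in the cluster led by Foxp3 and Izumo1r (ratio 1.47, 0.92 to 2.08) and lower in the cluster led by Cd160, Cd8b1 and Gzmk (ratio -0.92, -1.67 to -0.18). When each library was clustered by itself, 143 of the 186 Foxp3+ cells of the TNF+ lung were left unnamed, and the ratio over the 41 still in T cell clusters was -1.34 (-4.59 to 0.94).

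Pdcd1 was detected in 8 of 58 Foxp3+ cells of the TNF- lung (13.8%) and in 51 of 186 of the TNF+ lung (27.4%). With every cell thinned to 1000 UMIs these shares were 1.72% and 5.91%. No fibroblast of any library had a Pdcd1 UMI, with 433 fibroblasts in the TNF- lung and 3362 in the TNF- synovium at a median depth of 6816 and 15298.5 UMIs. In synovial C1q macrophages of TNF- mice, 13 Pdcd1 UMIs came from 2 cells, and none of the 747 such cells of the TNF+ synovium had any.

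**Figure D2:**
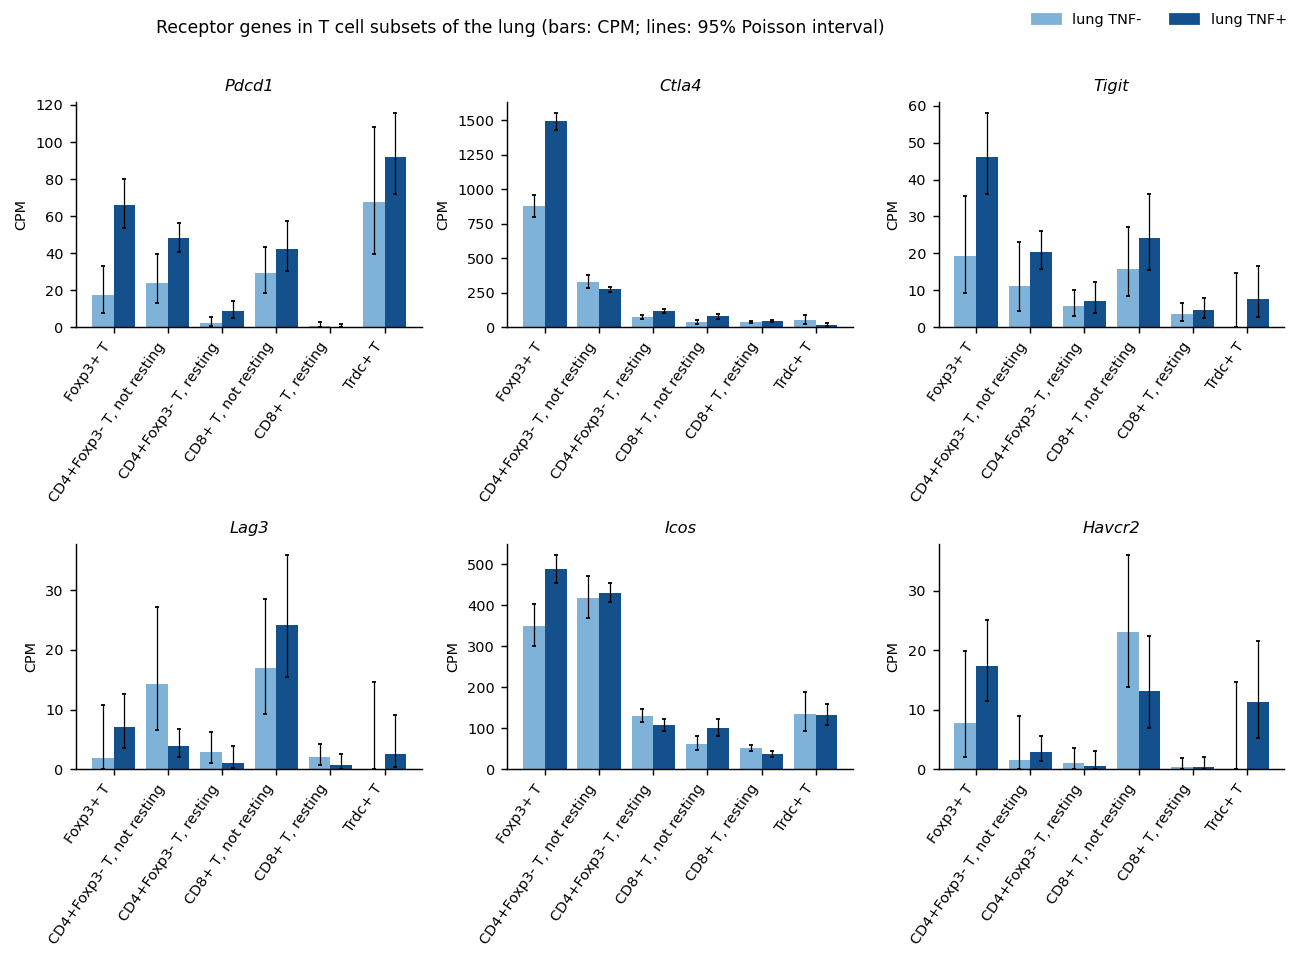
Level of the 6 receptor genes (CPM, vertical axis) in lung T cell subsets, TNF- beside TNF+, with exact Poisson 95% intervals that cover counting error. In Foxp3+ cells Pdcd1 was at 17.4 (TNF-) and 65.9 CPM (TNF+), and Ctla4 at 876 and 1491 CPM, while Lag3 and Havcr2 intervals overlapped.

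Ctla4 was highest in Foxp3+ cells among the gated T subsets of the lung. Foxp3+ cells of the lung had 876 CPM in TNF- (452 UMIs) and 1491 CPM in TNF+ (2330 UMIs), a ratio of 0.77 (0.62 to 0.92). At 1000 UMIs per cell a Ctla4 UMI was found in 46.6% (33.3 to 60.1) of Foxp3+ cells in TNF- and in 63.4% (56.1 to 70.4) in TNF+, beside 0 of 354 thinned fibroblasts of the TNF- lung, which allows a share of up to 0.847%. CD4+Foxp3- cells had 135 CPM in TNF- and 217 CPM in TNF+, a ratio of 0.69 (0.51 to 0.86). Resting cells of this subset had 75.4 CPM (TNF-, 156 UMIs) and 119 CPM (TNF+, 217 UMIs), a ratio of 0.66 (0.35 to 0.96). Cells outside the resting state had 332 CPM in TNF- and 275 CPM in TNF+ (ratio -0.27, -0.49 to -0.04), so the direction differed between the states. In the cluster led by Foxp3 the ratio was 0.17 (0.06 to 0.28). The ratio of 1.26 (1.17 to 1.36) over all lung T cells, from 123 CPM to 295 CPM, was thus larger than in either CD4 subset.

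Tigit and Icos, an inhibitory and a costimulatory receptor, were higher in TNF+ over each CD4 subset of the lung, but Icos was not higher within the resting state. Tigit had 6.82 CPM in TNF- (62 UMIs) and 16.5 CPM in TNF+ (226 UMIs) over lung T cells, a ratio of 1.27 (0.86 to 1.70). It was higher in Foxp3+ cells (ratio 1.25, 0.29 to 2.37, from 10 and 72 UMIs) and in CD4+Foxp3- cells (1.14, 0.40 to 1.95, from 19 and 76 UMIs). Resting CD4+Foxp3- cells had 5.80 CPM of Tigit in TNF- (12 UMIs) and 7.12 CPM in TNF+ (13 UMIs). Outside the resting state the Tigit levels were 11.2 CPM (7 UMIs, 4.49 to 23.0) and 20.4 CPM (63 UMIs, 15.7 to 26.2), with overlapping intervals. Icos had 146 CPM in TNF- (1332 UMIs) and 226 CPM in TNF+ (3101 UMIs), a ratio of 0.63 (0.53 to 0.72). In CD4+Foxp3- cells the Icos ratio was 0.65 (0.51 to 0.80), and outside the resting state the levels were 418 and 430 CPM (ratio 0.04, -0.15 to 0.24). Resting CD4+Foxp3- cells had 130 CPM of Icos in TNF- and 107 CPM in TNF+ (ratio -0.28, -0.56 to -0.01). The Tigit and Icos ratios over CD4+Foxp3- cells thus mix the level within each state with the resting share. That share was 75.9% in TNF- and 35.0% in TNF+. In CD8+ cells Icos was at 53.7 (TNF-) and 53.4 CPM (TNF+). ILC2 of the lung, innate lymphocytes that make type-2 cytokines, had 169 CPM of Icos in TNF- (51 UMIs) and 302 CPM in TNF+ (296 UMIs), a ratio of 0.84 (0.41 to 1.30).

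Lag3 and Havcr2 were rare in lung T cells. Lag3 had 40 UMIs in TNF- and 62 UMIs in TNF+ lung T cells (4.40 and 4.52 CPM; ratio 0.04, -0.56 to 0.65). Its level was lower in TNF+ in CD4+Foxp3- cells outside the resting state (ratio -1.88, -3.25 to -0.46), on 9 and 12 UMIs. Havcr2 had 32 and 70 UMIs over lung T cells, and the interval of its ratio held 0 (-0.09 to 1.19).

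The ligand genes Pdcd1lg2 and Cd86 were also counted in lung T cells. Pdcd1lg2 had 48 UMIs (5.28 CPM) in TNF- and 311 UMIs (22.7 CPM) in TNF+, a ratio of 2.10 (1.66 to 2.57), and it was higher in CD4+Foxp3- cells (2.55, 1.66 to 3.59) and CD8+ cells (2.64, 1.39 to 4.18). Cd86 was higher in Foxp3+ cells (12 and 104 UMIs; ratio 1.52, 0.65 to 2.52) and CD4+Foxp3- cells (15 and 84 UMIs; 1.62, 0.82 to 2.52), and was at 19.7 CPM in CD8+ cells of both libraries. Nonclassical monocytes, which made both genes, numbered 320 in the TNF- lung and 2734 in the TNF+ lung, and the part of their free RNA in these T cell values was not tested. A cluster of 35 lung cells with T cell markers was led by genes such as Il10, Apoc2 and Cd300e, the last a marker of nonclassical monocytes, and was left out of the T cells. With the cells of highest doublet score removed the ratios in CD4+Foxp3- cells were 2.69 for Pdcd1lg2 and 1.57 for Cd86. In lung fibroblasts Cd86 had 2 UMIs in 433 TNF- cells (0.637 CPM) and 4 UMIs in 92 TNF+ cells (11.8 CPM), beside 17.1 CPM in TNF+ CD4+Foxp3- cells. In lung mural cells of TNF+ mice, at a median depth of 654.5 UMIs, Cd86 was at 22.2 CPM (7.20 to 51.8) on 5 UMIs and Pdcd1lg2 at 26.6 CPM (9.77 to 57.9) on 6 UMIs. The levels in TNF+ CD4+Foxp3- cells, 17.1 CPM for Cd86 and 23.8 CPM for Pdcd1lg2, lay within these intervals. Other TNF+ lung groups had less Cd86, with 4.63 CPM (1.86 to 9.54) in endothelium and 7.83 CPM (3.58 to 14.9) in NK cells. ILC2 had 3.06 CPM (0.632 to 8.95). Foxp3+ cells of the TNF+ lung had 66.6 CPM of Cd86 (54.4 to 80.7), above the mural interval. Of the members, 4 of 9 tested in Foxp3+ cells were at least 2-fold higher (Pdcd1, Cd86, Tigit and Havcr2; 7.96% of genes), 5 of 9 in CD4+Foxp3- cells (Pdcd1, Pdcd1lg2, Cd80, Cd86 and Tigit; 7.07%) and 2 of 10 in CD8+ cells (Pdcd1lg2 and Cd80; 3.73%). None of the members was 2-fold lower in these subsets, where 4.92%, 5.96% and 5.74% of genes were, in that order, although Lag3 in CD4+Foxp3- cells came near, at -0.96 (-2.12 to 0.19).

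Synovial T cells were few, 125 in the TNF- library and 130 in the TNF+ library, and their cluster also held NK cells. Of these, 26 cells in TNF- and 10 in TNF+ had a UMI of Ncr1, an NK cell receptor, and 35 and 49 had no UMI of a CD3 gene. The members at least 2-fold higher in TNF+ were Pdcd1, Lag3, Icos and Havcr2, 4 of 10, beside 6.18% of genes. Icos had 245 UMIs (183 CPM) in TNF- and 386 UMIs (454 CPM) in TNF+, a ratio of 1.31 (1.08 to 1.55). Pdcd1 had 56 UMIs (41.8 CPM) in TNF- and 81 UMIs (95.4 CPM) in TNF+, a ratio of 1.19 (0.68 to 1.71). Havcr2 had 7 UMIs in TNF- and 32 UMIs in TNF+, a ratio of 2.85 (1.64 to 4.27). Without the cells that had an Ncr1 UMI or no CD3 UMI, an alternative added after the data had been seen, these ratios were 1.42 for Icos, 1.23 for Pdcd1 and 3.09 for Havcr2, whereas that of Lag3 went from 1.16 to -0.054.

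The CD4+Foxp3- cells of the synovium, 32 in TNF- and 22 in TNF+, showed the Icos difference as well. Icos had a TNF- level of 238 CPM (79 UMIs) and a TNF+ level of 799 CPM (125 UMIs), a ratio of 1.75 (1.33 to 2.17). It was the only 1 of 5 members tested there past 2-fold, beside 11.1% of genes. Unlike in the lung, the ratio was as large in cells outside the resting state (2.01, 1.52 to 2.53); the lung and synovium were not compared by a test. Ctla4 was at 153 and 224 CPM (ratio 0.54, -0.12 to 1.19) and Tigit at 51.1 and 44.7 CPM (-0.19, -1.71 to 1.15). Synovial Foxp3+ cells, 7 and 10, were too few for a level.

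Cells with a Pdcd1 UMI were then set beside cells without one within a library. This comparison is a description of single cells, which are not replicates. Among CD4+Foxp3- cells of the TNF+ lung, 91 cells had a Pdcd1 UMI and 435 did not, at a median depth of 9730 and 9162 UMIs. Cells with Pdcd1 had higher levels of Tox, a factor of chronically stimulated T cells (1280 against 487 CPM), of its relative Tox2 (107 against 26.7 CPM), of Tigit (43.3 against 9.24 CPM) and of the cytokine gene Ifng (110 against 27.5 CPM). They also had more of the granzyme gene Gzmk (53.3 against 8.24 CPM) and of Izumo1r, which encodes folate receptor 4 (135 against 42.2 CPM). They had less of the resting gene Lef1 (198 against 843 CPM). Bcl6 was at 78.8 CPM with Pdcd1 and 81.4 CPM without (ratio -0.05, -0.44 to 0.33), and Cxcr5 at 27.7 and 18.0 CPM (0.63, -0.09 to 1.30). Icos (333 and 305 CPM) and Cd274 (96.5 and 94.6 CPM) were also close, with intervals that held 0.

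Among Foxp3+ cells of the TNF+ lung, 51 had a Pdcd1 UMI and 135 did not, at a median depth of 8653 and 7333 UMIs. Those with Pdcd1 had more Tox (2580 against 1037 CPM), Tigit (87.1 against 28.4 CPM), Irf4 (91.4 against 33.9 CPM) and Ccr8, a chemokine receptor of tissue regulatory T cells (93.5 against 13.7 CPM). They had less Cxcr3 (70.1 against 147 CPM). Of the Trdc+ cells, the 30 with Pdcd1 had more Il17a (301 against 110 CPM) and less Nkg7 (51.4 against 256 CPM) and Ccl5 (437 against 1428 CPM) than the 62 without. Over all lung T cells of TNF+ mice, Tigit was found in 51 of the 220 Pdcd1+ cells (23.2%) and in 7.83% of the others, and Ctla4 in 132 (60.0%) and in 35.7%. In the TNF- lung a Lag3 UMI was found in 11 of 50 Pdcd1+ cells (22.0%) and in 1.31% of the others. In the TNF+ lung the corresponding shares were 6.82% and 2.72%.

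**Figure D3:**
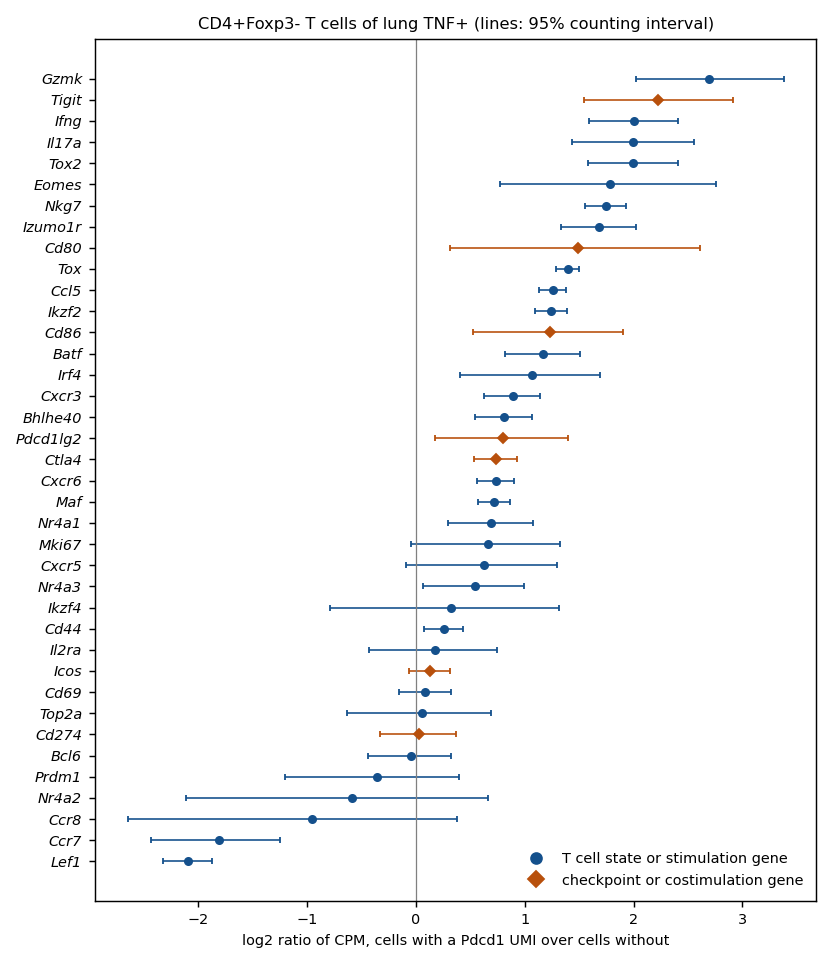
Log2 ratio of CPM (horizontal axis) in the 91 CD4+Foxp3- T cells of TNF+ lung with a Pdcd1 UMI over the 435 without, 1 gene per line, with circles for T cell state or stimulation genes, diamonds for members and bars for the 95% counting interval. Gzmk had a ratio of 2.69 and Tigit of 2.23 at the top, Icos and Bcl6 lay near 0, and Lef1 was at the bottom with -2.09.

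The other genes of the pathway were counted over lists that hold no member. Over lung T cells, 5 of 10 costimulatory receptors were at least 2-fold higher in TNF+ and none lower: Tnfrsf4, which encodes OX40 (ratio 2.52, 2.26 to 2.79), Tnfrsf18 (GITR, 1.14), Cd40lg (CD40 ligand, 1.09), Slamf1 (1.06) and Tnfrsf9 (4-1BB, 1.03). The median of this list was 0.83, and 6.57% of all genes were 2-fold higher and 7.05% lower. Of 11 other inhibitory receptors 3 were higher, Pilra (3.14), Cd200r1 (2.04) and Cd244a (1.10). The part of free RNA from other cells, such as monocytes, in these T cell values was not tested. Of 12 chronic stimulation factors 2 were higher, Tox2 (1.07) and Ikzf2 (1.04). In CD4+Foxp3- cells outside the resting state 0 of 10 costimulatory receptors were past 2-fold in either direction, where 6.63% of genes were higher and 4.34% lower, and the median ratio was 0.11. Of the T cell state list, 11 of 19 genes were higher and 4 lower in CD4+Foxp3- cells, beside 7.07% and 5.96% of all genes. Those higher included Gzmk (ratio 4.48, from 2 and 81 UMIs), Ccr8 (3.14, from 3 and 48 UMIs), Cxcr3 (1.67) and Il17a (1.62), and those lower included Ccr7 (-1.51), Il10 (-1.13) and Lef1 (-1.04), of which Ccr7 and Lef1 help to define the resting state. In Foxp3+ cells Tnfrsf4 was the only 1 of 10 costimulatory receptors past 2-fold (1.81, 1.47 to 2.16), and Bhlhe40 (2.53), Irf4 (1.92) and Prdm1 (1.21) were the 3 of 11 chronic stimulation factors past it, beside 7.96% of genes higher.

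In synovial T cells 4 of 10 costimulatory receptors were higher, Tnfrsf9 (1.52), Tnfrsf18 (1.38), Tnfrsf4 (1.29) and Slamf1 (1.09), and 2 were lower, Cd40lg (-1.69) and Cd226 (-1.64), beside 6.18% and 7.42% of all genes. The immediate early genes Nr4a1 (-2.51) and Nr4a2 (-1.40) were lower there, as were Ccl5 (-1.28) and Nkg7 (-1.23), which NK cells also make.

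Among the ligands, Cd274 was higher in TNF+ in monocytes and C1q macrophages of both tissues. Nonclassical monocytes, patrolling cells that keep to the vessel wall, held most of its UMIs in the TNF+ lung. They had 621 UMIs (231 CPM) in TNF- and 12568 UMIs (467 CPM) in TNF+, a ratio of 1.02 (0.90 to 1.14). At 1000 UMIs per cell, 17.5% (13.5 to 22.1) of them had a Cd274 UMI in TNF- and 35.7% (33.9 to 37.5) in TNF+, beside 0.847% (0.18 to 2.46) of 354 TNF- and 2.13% (0.05 to 11.3) of 47 TNF+ lung fibroblasts. Unthinned, these shares were 60.9% and 88.8%, at a median depth of 8019 and 9306 UMIs. Most lung nonclassical monocytes of TNF- and of TNF+ lay in different clusters, whose cell numbers are given with Havcr2 below. No ratio within a cluster is given there for Cd274, Pdcd1lg2 or Cd86, so their ratios in this class also compare different clusters. Classical monocytes had 61.1 CPM in TNF- (121 UMIs) and 192 CPM in TNF+ (1777 UMIs), a ratio of 1.65 (1.38 to 1.93). C1q macrophages of the lung had 16.7 CPM in TNF- (13 UMIs) and 176 CPM in TNF+ (589 UMIs), a ratio of 3.39 (2.61 to 4.31). Without the filter on cells the Cd274 ratio was 0.78 (0.51 to 1.05) in classical monocytes, under 2-fold, and 2.22 (1.87 to 2.58) in C1q macrophages. Alveolar macrophages had 260 CPM in TNF- and 253 CPM in TNF+ (ratio -0.04, -0.23 to 0.14), but the TNF+ cells had a median of 785 UMIs against 12154, and the part of this depth gap in the result was not tested.

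In the synovium the Cd274 ratio was largest in C1q macrophages, with 7 UMIs in 76 TNF- cells (6.81 CPM) and 2274 UMIs in 747 TNF+ cells (182 CPM), a ratio of 4.74 (3.69 to 6.05). Different clusters made up this class in the 2 libraries. The cluster led by C1qc and Folr2 held 70 TNF- and 34 TNF+ cells, and the cluster led by Lyz1, Trem2 and Spp1 held 6 and 713. Within the first of these, the only one with cells enough in both libraries, the ratio was 2.93 (1.39 to 4.74) on 5 and 15 UMIs. Nonclassical monocytes of the synovium had 127 CPM in TNF- (226 UMIs) and 284 CPM in TNF+ (464 UMIs), a ratio of 1.17 (0.93 to 1.40). Outside the myeloid cells, endothelium of the synovium had 167 CPM in TNF- and 199 CPM in TNF+ (ratio 0.25, 0.09 to 0.42), and synovial fibroblasts 11.4 and 9.08 CPM (-0.33, -0.76 to 0.08).

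**Figure D4:**
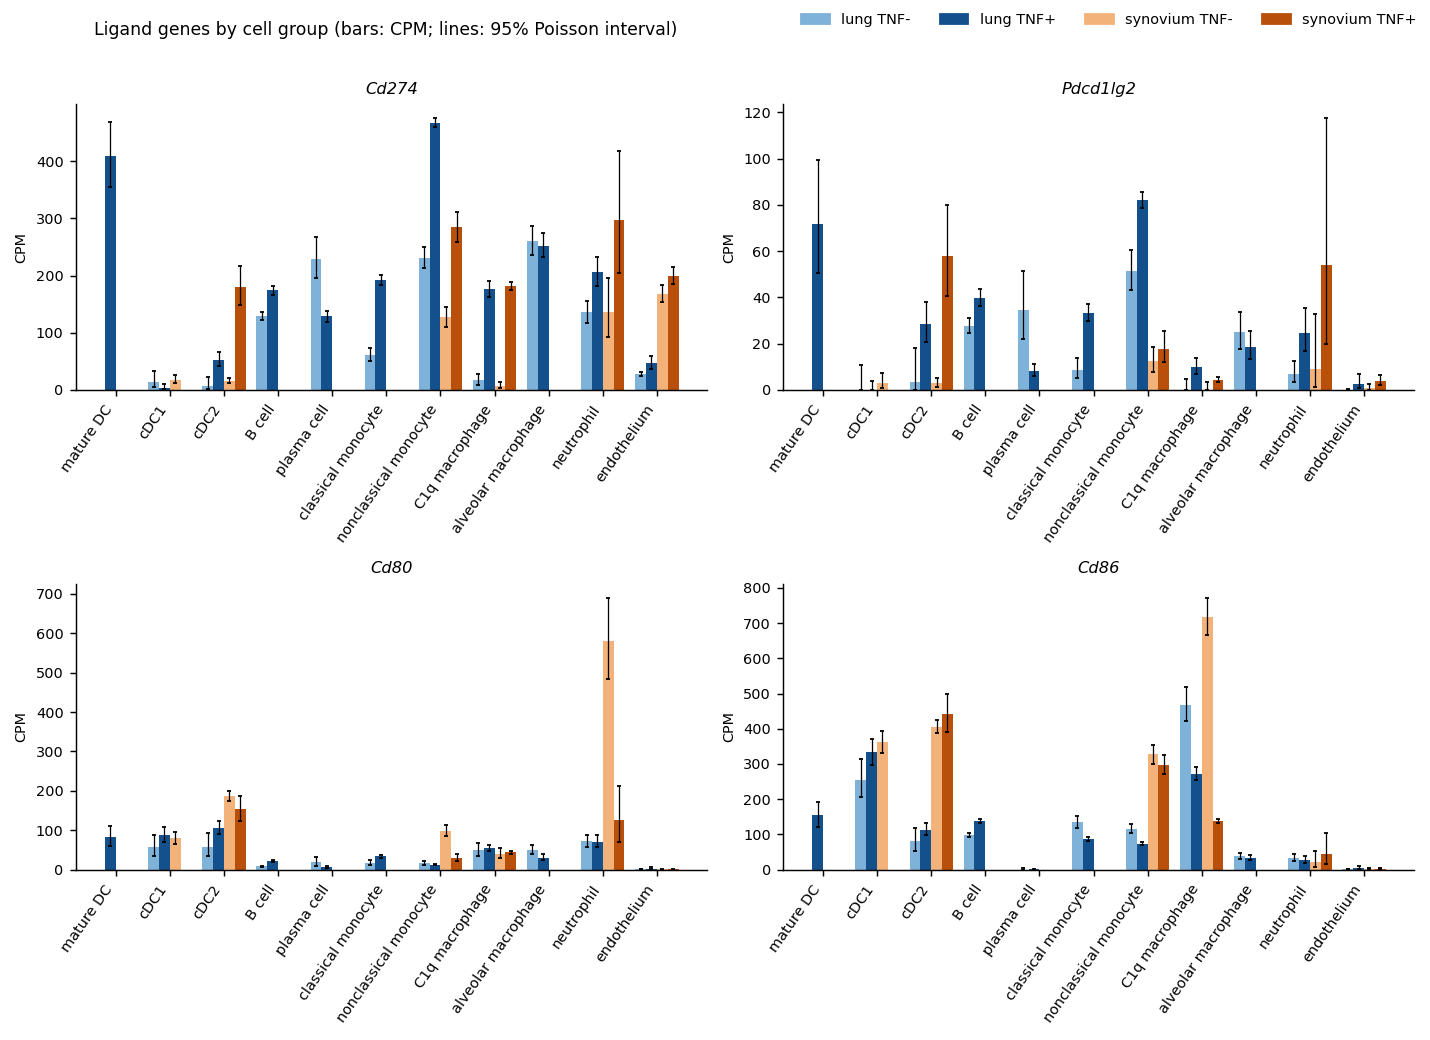
Level (CPM) of the 4 ligand genes by cell type in the 4 libraries, with exact Poisson 95% intervals, for groups of at least 20 cells. Synovial B cells are left out because their cluster mixes B and plasma cells. Cd274 in lung nonclassical monocytes was at 231 (TNF-) and 467 CPM (TNF+), and Cd86 in synovial C1q macrophages at 718 and 138 CPM.

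Pdcd1lg2, the other PD-1 ligand, was also higher in the monocytes of the TNF+ lung. Nonclassical monocytes of the lung had 51.3 CPM in TNF- (138 UMIs) and 82.3 CPM in TNF+ (2212 UMIs), a ratio of 0.68 (0.43 to 0.94). Classical monocytes had 8.58 CPM in TNF- (17 UMIs) and 33.2 CPM in TNF+ (308 UMIs), a ratio of 1.95 (1.25 to 2.75). Cd274 and Pdcd1lg2 were the 2 of 6 members past 2-fold in classical monocytes, beside 6.95% of genes. C1q macrophages of the lung had 0 UMIs in 63 TNF- cells and 33 UMIs in 249 TNF+ cells, so the level was at least 2.55-fold higher against a floor of 3 UMIs. Lung ILC2 had 39.7 CPM in TNF- and 47.0 CPM in TNF+ (ratio 0.24, -0.70 to 1.30).

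Dendritic cells, the strongest stimulators of resting T cells, gave opposite ratios of the 2 PD-1 ligands in the 2 tissues. In the synovium, 366 TNF- cells had 174 Cd274 UMIs (24.6 CPM) and 80 TNF+ cells had 276 (212 CPM), a ratio of 3.10 (2.83 to 3.39). Pdcd1lg2 had 32 UMIs (4.53 CPM) in TNF- and 92 UMIs (70.5 CPM) in TNF+, a ratio of 3.96 (3.37 to 4.59). These 2 of 9 members were past 2-fold higher there, beside 6.54% of genes. Another 2, Ctla4 (25 and 2 UMIs) and Icos (24 and 1 UMIs), were past 2-fold lower, beside 15.9% of genes. The type 2 conventional subset (cDC2) of the synovium, 219 and 39 cells, showed the same with ratios of 3.49 (3.04 to 3.94) and 4.35 (3.38 to 5.43). In the lung the Cd274 ratio over dendritic cells was -0.41 (-0.69 to -0.13), from 152 and 365 UMIs, and that of Pdcd1lg2 was -1.07 (-1.52 to -0.60), from 68 and 104 UMIs. In the TNF- lung 10 mature dendritic cells held 138 of the 152 Cd274 UMIs and 65 of the 68 Pdcd1lg2 UMIs. In the TNF+ lung 34 mature cells held 205 of 365 and 36 of 104. In lung cDC2 the direction was the opposite: these 21 and 92 cells had 2 and 82 Cd274 UMIs (ratio 3.03, 1.13 to 6.10) and 1 and 44 Pdcd1lg2 UMIs (3.13, 0.58 to 8.47). Cd274, Pdcd1lg2 and Lag3 were the 3 of 6 members past 2-fold in lung cDC2, beside 10.1% of genes. The cDC1 subset, which presents antigen to CD8 T cells, had 5 and 4 Cd274 UMIs in lung (14.4 CPM in 23 TNF- and 4.17 CPM in 80 TNF+ cells; ratio -1.78, -4.12 to 0.43) and no Pdcd1lg2 UMI.

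Cd86, which like Cd80 encodes a ligand of CD28 and CTLA-4, was lower in TNF+ in several of the populations with higher Cd274. Cd86 was lower in TNF+ in nonclassical monocytes (116 and 73.8 CPM; ratio -0.66, -0.83 to -0.48), classical monocytes (134 and 86.0 CPM; -0.64, -0.84 to -0.43) and C1q macrophages (468 and 273 CPM; -0.78, -0.96 to -0.60) of the lung. The largest difference was in C1q macrophages of the synovium, with 738 UMIs (718 CPM) in TNF- and 1723 UMIs (138 CPM) in TNF+, a ratio of -2.38 (-2.51 to -2.26). Cd274 and Havcr2 were the 2 of 5 members past 2-fold higher in these macrophages (9.57% of genes) and Cd86 the 1 lower (22.4%). In the C1qc and Folr2 cluster, where both libraries had cells, Cd86 was at 783 and 677 CPM (ratio -0.21, -0.43 to 0.00). Nonclassical monocytes of the synovium had 327 and 298 CPM (-0.13, -0.31 to 0.04). In dendritic cells of the synovium Cd86 was at 404 (TNF-) and 426 CPM (TNF+), and Cd80 at 154 and 156 CPM, with intervals that held 0 for both (-0.06 to 0.21 for Cd86, -0.20 to 0.24 for Cd80).

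Cd80 was higher in classical monocytes of the TNF+ lung, with 34 UMIs (17.2 CPM) in TNF- and 318 UMIs (34.3 CPM) in TNF+ (ratio 1.0, 0.49 to 1.55), and in lung B cells, with 83 UMIs (8.38 CPM) and 257 UMIs (22.3 CPM; 1.41, 1.05 to 1.79). It was lower in nonclassical monocytes of the TNF+ synovium, with 176 UMIs (98.7 CPM) and 49 UMIs (30.02 CPM; -1.72, -2.20 to -1.25). Synovial neutrophils, 26 and 23 cells, had 127 UMIs (580 CPM) in TNF- and 14 UMIs (126 CPM) in TNF+ (-2.20, -3.11 to -1.40). Lung neutrophils had 71.6 and 70.2 CPM (-0.03, -0.46 to 0.40).

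Havcr2 was a myeloid gene in these libraries, and its ratio went in opposite directions in lung and synovium. Nonclassical monocytes of the lung had 571 UMIs (212 CPM) in TNF- and 2164 UMIs (80.5 CPM) in TNF+, a ratio of -1.40 (-1.53 to -1.26), and those of the synovium 324 UMIs (182 CPM) and 413 UMIs (253 CPM), a ratio of 0.48 (0.26 to 0.69). C1q macrophages of the lung had 53 UMIs (68.3 CPM) in TNF- and 118 UMIs (35.2 CPM) in TNF+ (-0.95, -1.43 to -0.46), and those of the synovium 32 UMIs (31.1 CPM) and 1655 UMIs (132 CPM; 2.09, 1.58 to 2.64). The level within lung clusters followed the class only in part. The nonclassical cluster of 41 TNF- and 2496 TNF+ cells, led by Il10, gave -1.31 (-1.65 to -0.96), and that of 39 and 223 cells gave -0.28 (-1.14 to 0.69). Another cluster of the class held 240 TNF- and 15 TNF+ cells. In the synovial C1qc and Folr2 cluster the Havcr2 ratio was 1.29 (0.49 to 2.09). Cd274 and Havcr2 were thus both higher in synovial macrophages, and differed in direction in lung nonclassical monocytes, where they were the 2 of 6 members past 2-fold, 1 higher (5.92% of genes) and 1 lower (8.59%). Lung cDC1 had 210 CPM of Havcr2 in TNF- and 221 CPM in TNF+, close to the 193 CPM of synovial cDC1 in TNF-. Lgals9, which encodes galectin-9, a ligand proposed for TIM-3, was lower in TNF+ nonclassical monocytes of both tissues (lung -1.50, -1.89 to -1.08; synovium -2.0, -2.76 to -1.31).

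**Figure D5:**
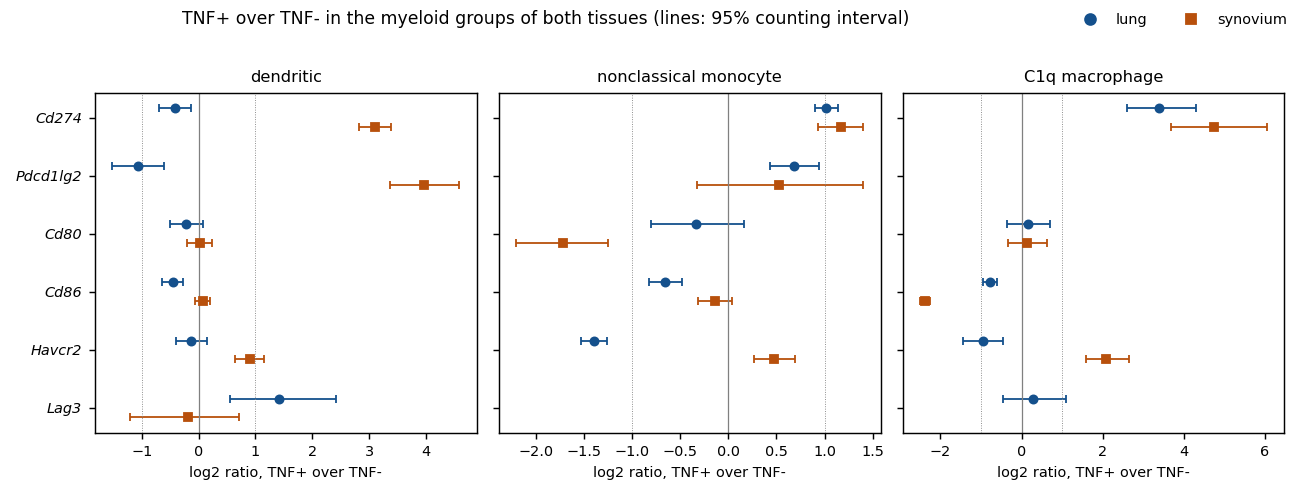
Log2 ratio of TNF+ over TNF- with its 95% interval for the ligand genes, Havcr2 and Lag3 in dendritic cells, nonclassical monocytes and C1q macrophages, with circles for lung, squares for synovium, a solid line at equal levels and dotted lines at 2-fold. Cd274 was at 1.02 and Havcr2 at -1.40 in lung nonclassical monocytes, and at 4.74 and 2.09 in synovial C1q macrophages.

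Outside T cells, Lag3 was counted in dendritic cells, fibroblasts and endothelium. Plasmacytoid dendritic cells, the main makers of type I interferon, held 26 UMIs in 13 cells of the TNF- lung and 66 UMIs in 20 cells of the TNF+ lung (215 CPM). In lung cDC2 it had 1 and 53 UMIs (3.23 and 34.1 CPM; ratio 3.40, 0.86 to 8.73). Synovial fibroblasts had 1204 UMIs (23.7 CPM) in TNF- and 70 UMIs (11.8 CPM) in TNF+, a ratio of -1.01 (-1.38 to -0.66), and synovial endothelium 144 UMIs (48.6 CPM) and 66 UMIs (17.6 CPM; -1.46, -1.90 to -1.03). At 1000 UMIs per cell 2.86% (2.32 to 3.48) of fibroblasts and 5.54% (3.82 to 7.73) of endothelial cells of the TNF- synovium had a Lag3 UMI, and none of 134 nonclassical monocytes there had one. Tigit UMIs of the TNF- synovium also lay mostly in fibroblasts, 128 UMIs in 3362 cells (2.52 CPM), with 1 UMI in the 462 fibroblasts of TNF+. In synovial fibroblasts 4 of 8 members were at least 2-fold lower in TNF+, beside 21.8% of genes.

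Outside T cells, B and plasma cells held 148 of 1344 Ctla4 UMIs of TNF- lung and 579 of 4888 of TNF+ lung. Lung B cells had 44 UMIs (4.44 CPM) in TNF- and 237 UMIs (20.6 CPM) in TNF+, a ratio of 2.21 (1.74 to 2.71). Plasma cells had 104 UMIs in 24 TNF- cells (150 CPM) and 342 UMIs in 149 TNF+ cells (63.2 CPM), a ratio of -1.25 (-1.57 to -0.92). Ctla4, Cd80 and Havcr2 were the 3 of 7 members past 2-fold higher in B cells (4.95% of genes), and Pdcd1lg2, Ctla4 and Cd80 the 3 of 4 past 2-fold lower in plasma cells (19.9%). The median log2 ratio of all genes in lung plasma cells was -0.47, so the typical gene was lower there too. The cluster of synovial B cells had more plasma cell than B cell markers among its leading genes and was not compared.

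Across 62 combinations of cell group and library with at least 50 cells, the genes whose log2(CPM + 1) levels were most like each member were ranked by Pearson's r. These correlations describe cell types that share libraries and carry no test. For Icos the nearest included Trbc1 (Pearson r = 0.920), a T cell receptor constant gene, and Camk4 (0.918). For Ctla4 they were 2310016D23Rik (0.884), Izumo1r (0.874) and Cd5 (0.867), and for Tigit Sh2d1a (0.830), Cd28 (0.828) and Trbj2-7 (0.824). Pdcd1 was nearest to Krt83 (0.883), Ly6g5b (0.836) and Tnfsf11 (0.833), the last encoding RANKL. Cd86 was nearest to Cd83 (0.863), a gene of activated antigen-presenting cells, Pld4 (0.841) and Irf5 (0.839), and Cd80 to Gm46224 (0.827), Irf5 (0.820) and Gm14548 (0.818). Havcr2 was nearest to Naip6 (0.867), Mpeg1 (0.852) and 4930455G09Rik (0.846), and Pdcd1lg2 to Samsn1 (0.814), Spn (0.743) and Itgal (0.742), the last a pair of the markers used for nonclassical monocytes. For Cd274 the nearest were Fmnl1 (0.684), Gm13212 (0.684) and A930007I19Rik (0.673), the antisense gene that overlaps Pdcd1lg2. Lag3 had the lowest values, with Serpinf1 (0.615), Tyms (0.600) and Pea15a (0.576).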

How the data were processed

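Droplet-based 3′ single-cell RNA sequencing of sorted viable cells was done on lung and synovium pooled by group, 1 library per group. The values deposited by the authors are raw UMI counts of genes in cells, made, per the submitters' processing notes, with Cell Ranger 7.0.1 on mm10; at its default settings intronic reads are counted. Cells with 200 to 5000 genes and at most 20% mitochondrial UMIs were kept, as in the study's methods. The 2 libraries of a tissue were clustered together with leidenalg 0.10.2 (2000 variable genes without the members, 30 components, resolution 0.8). Clusters were named from 24 marker lists with at least 5 markers detected 2-fold over other clusters; this threshold and the split of dendritic cells were set after the data had been seen. Doublets were kept, and removal by Scrublet score (scanpy 1.11.5) was an alternative. T cell subsets were gated on 1 UMI of Foxp3, Trdc, Cd4, Cd8a or Cd8b1.

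UMIs were summed per cell group and library and given as CPM (per 1000000 UMIs of the group) for groups of at least 20 cells, with exact Poisson 95% intervals, and as log2 ratios of TNF+ over TNF- with exact conditional binomial 95% intervals and a floor of 3 UMIs against a count of 0. Genes with at least 20 UMIs over both libraries entered counts of genes past 2-fold. Shares of cells were taken after thinning to 1000 UMIs, with exact Clopper-Pearson intervals. Intervals and floors cover counting error only. With 1 library per group there was no test. The calculation of ratios was tested on simulated data. The members and lists were chosen with earlier results of these data known. Named are all members, of each pathway list genes at least 2-fold apart with an interval without 0 (at most 6 per comparison), and the 3 genes most correlated with each member. Values of some genes are not reported here.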

Additional observations from a re-analysis of the deposited data

Results flagged for a closer look

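Within 3 cell groups the ratio of TNF+ over TNF- had opposite signs in the 2 tissues, with both intervals clear of 0. The difference between tissues was not tested, since each tissue and genotype is 1 library. In dendritic cells the Cd274 log2 ratio was -0.41 in lung and 3.10 in synovium, and that of Pdcd1lg2 was -1.07 in lung and 3.96 in synovium. The 10 mature dendritic cells of the TNF- lung held 138 of 152 Cd274 UMIs there, and without the filter on cells the lung ratio of Cd274 was 0.45. In C1q macrophages the Havcr2 ratio was -0.95 in lung and 2.09 in synovium. In nonclassical monocytes it was -1.40 in lung and 0.48 in synovium.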

How the results depend on the processing

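Of 2081 values recomputed for 242 ratios of the members under the alternatives, 1921 moved by less than the counting interval of the original ratio, 138 moved by more, and 22 whose interval had not held 0 changed sign. No paired analysis was possible because each group is 1 library. The cause of these changes was not tested. Without the filter on cells the sign changed for Cd274 (0.45) and Pdcd1lg2 (0.0055) in lung dendritic cells, Cd86 in lung cDC1 (-0.22) and other lung dendritic cells (-0.014), and Cd80 (-0.16), Cd86 (-0.0701) and Icos (-0.081) over the whole synovium. With each library clustered by itself it changed for Pdcd1 in lung Foxp3+ cells (-1.34), Lag3 in lung dendritic (-0.10) and other dendritic cells (-0.036) and Icos in NK cells (0.018). Cd274 in lung epithelium was -0.68 without the cells of highest Scrublet score and -1.14 at resolution 1.5. At that resolution Cd274 and Lag3 in synovial T cells were both -0.49, and Cd274 in the other synovial T cells -1.04. Without T cluster cells that had an Ncr1 UMI or no CD3 UMI, an alternative chosen after seeing the data, Cd274 (-0.29) and Lag3 (-0.054) in synovial T cells and Cd274 in other synovial T cells (-0.50) changed sign. So did Ctla4 in other synovial T cells with gates of 2 UMIs (-0.32), and with each cell weighted equally Ctla4 in lung CD4+Foxp3- cells outside the resting state (0.010) and Cd86 in other lung dendritic cells (-0.028). Other ratios kept their sign but moved past the counting interval of the original ratio. For Ctla4 in lung CD4+Foxp3- cells the ratio was lower without the filter (0.48), clustered alone (0.44) and with gates of 2 UMIs (0.42). It was higher with each cell weighted equally (0.97). In lung Foxp3+ cells the Ctla4 ratio was lower clustered alone (0.35) and with gates of 2 UMIs (0.54). Cd274 without the filter was 2.22 in lung C1q macrophages and 0.78 in classical monocytes. Icos in synovial T cells was 2.38 clustered alone. Cd86 in synovial C1q macrophages was -2.53 without the filter, -2.61 clustered alone, -2.15 with median-of-ratios scaling and -2.07 weighted equally. Thinning to 2000 UMIs gave Cd274 shares of 33.9% and 53.6% in TNF- and TNF+ lung nonclassical monocytes, and a Ctla4 share of 80.3% in TNF+ Foxp3+ cells. Median-of-ratios scaling subtracts the median log2 ratio of genes from each ratio. That median was -0.24 in synovial C1q macrophages, -0.48 in lung plasma cells and -0.32 over the whole lung, so ratios there were raised. Shares at 1000 UMIs were near the level of 1 UMI for Pdcd1, Tigit, Lag3 and Havcr2 in T cells, so ratios of summed UMIs are given for them.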
